A study of Homo sapiens with 6 samples.

Results

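The ISG15 conjugation system was followed in the lung adenocarcinoma cell line A549 as 6 genes: the modifier ISG15, the activating enzyme UBA7, the conjugating enzyme UBE2L6, the ligases HERC5 and HERC6, and the deconjugase USP18. They were taken by symbol from 58302 gene rows and were chosen by their lower fitted levels in the same comparison reported here. Their group differences are therefore given as descriptions, with no p-value for any single member. Counts of members that passed a threshold support nothing further. All 6 passed the minimum on low counts, which left 15631 genes to be tested. RNA sequencing compared 3 libraries of A549 cells transfected with SNHG5, a long non-coding RNA, and 3 libraries of A549 cells transfected with vector. Cells of both groups were at passages 6-8 in RPMI medium with serum, the replicates are described as biological, and no interferon or virus appears among the labelled conditions. No untransfected library was analysed here, and both groups went through transfection.

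ISG15 is a ubiquitin-like protein that interferon signalling switches on. UBA7 activates it, UBE2L6 carries it, and HERC5, which binds ribosomes, is the main human ligase that joins it to newly made proteins, while USP18 cleaves it off again. USP18 also sits on the interferon receptor subunit IFNAR2 and damps signalling there, apart from its protease activity. In mouse, Herc6 is the main ISG15 ligase, and human HERC6 is the neighbouring paralog of HERC5.

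Promoters of interferon-stimulated genes commonly carry the interferon-stimulated response element. The motif GAAANNGAAA was searched on both strands in RefSeq windows on GRCh38.p14, from 250 bases before to 50 bases after a gene's start. Windows were matched for ISG15, UBE2L6, HERC5 and HERC6. The upstream stretches of ISG15 and HERC5 are shown because they hold the matches, which are in capitals. They lie at chr1:1013347-1013421 and chr4:88456969-88457058, both on the plus strand.
ISG15: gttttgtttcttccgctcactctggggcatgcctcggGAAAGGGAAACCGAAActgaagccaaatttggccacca
HERC5: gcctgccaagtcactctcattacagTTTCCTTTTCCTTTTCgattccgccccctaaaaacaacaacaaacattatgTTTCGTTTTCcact
ISG15 held 2 overlapping matches, starting at -113 and -107 from its RefSeq start at 1013497. That start lies within the wider gene span given below, which begins at 1001138. HERC5 held 3 on the opposite strand, starting at -125, -119 and -74, of which the first 2 overlap. The window of HERC6 and both windows of UBE2L6 held 0. Of all 27305 genes with a window, 4.38% held the motif. A match is a run of letters, not a measured binding site.

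Library totals ran from 13378079 to 16999604 counts, and a floor of 3 counts was 0.175 to 0.218 CPM in these libraries (CPM is the count scaled to a common TMM-adjusted library total). Floors cover counting error only. SNHG5 itself stood at 153.3, 126.5 and 62.9 CPM in the libraries labelled overexpression 1, 2 and 3, against 61.0, 101.3 and 55.1 CPM in controls 1, 2 and 3 (edgeR quasi-likelihood adjusted p 0.746). The library labelled overexpression 3 thus overlapped the controls in SNHG5, and every direction below is between libraries as labelled. Ribosomal RNA genes took 1.04% to 1.14% of counts in the overexpression libraries and 0.8% to 0.852% in the controls, a share that separated the same groups as the members did, and its part in the results was not tested. Of the marker lists, all 5 epithelial genes were detected, with summed levels of 2110 to 3430 CPM in overexpression libraries and 3540 to 4110 CPM in controls. KRT8 was the largest part of that sum, at 1260 to 2250 CPM in overexpression libraries and 2440 to 2660 CPM in controls. The groups overlapped for EPCAM, KRT18, KRT19 and CDH1. Of 6 leukocyte markers, PTPRC, CD3E and LYZ had 0 counts in every library. The summed leukocyte list, nearly all CD68, was at 27.4 to 39.4 CPM in overexpression libraries and 75.4 to 93.1 CPM in controls. The part of these list differences in the results was not tested.

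All 6 members had lower levels in the libraries labelled overexpression than in the controls, and for all 6 the groups did not overlap. Among all genes tested, 7.52% had every overexpression library below every control. Fitted differences ran from 2.28-fold lower for HERC6 to 8.32-fold lower for UBA7, with a median log2 fold change of -2.46 over the members and 0.01 over all genes tested. All 6 were at least 2-fold lower, against 3.03% of the genes tested. These counts describe genes that were chosen for this contrast, and nothing is read from them. In bulk RNA, fewer cells expressing a gene and less of its RNA per cell cannot be told apart.

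**Figure D1:**
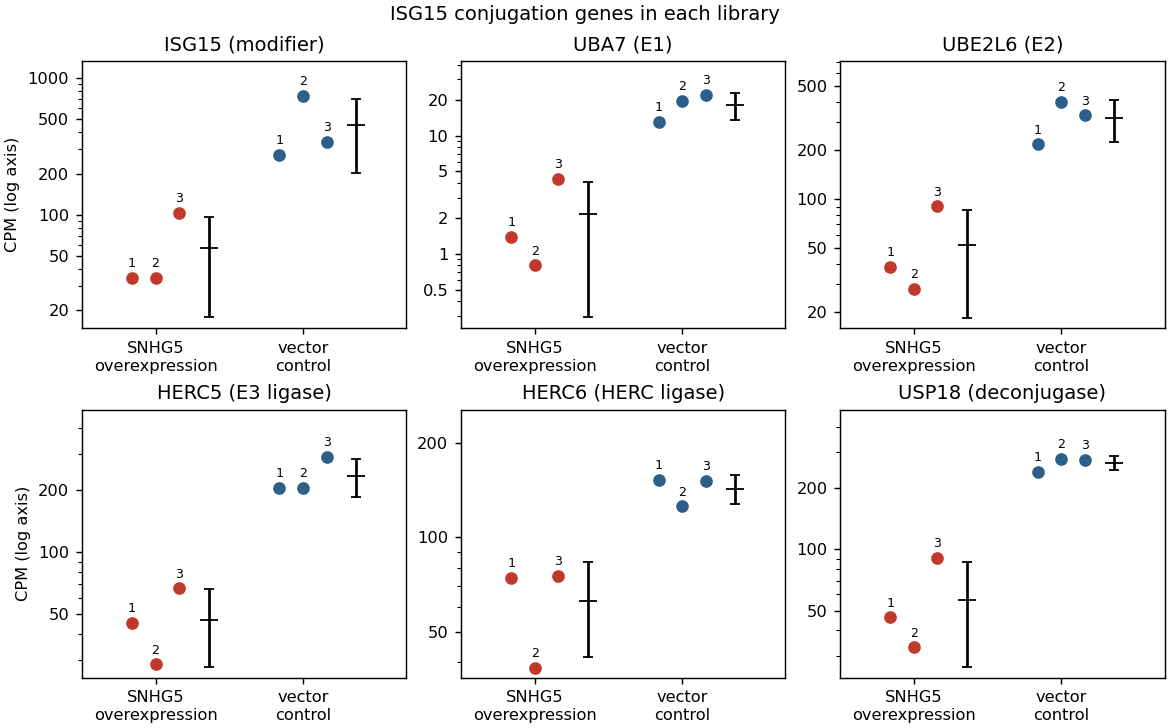
CPM on a log axis (each panel has its own range) for the 6 members in the 3 SNHG5 overexpression libraries and the 3 vector controls; numbers mark replicates, and bars give mean ± SD. In each panel the overexpression libraries lie below the controls, and overexpression 3 is the highest of its group.

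ISG15 (ENSG00000187608, chromosome 1, 1001138 to 1014541, plus strand), the modifier, stood at 34.5, 34.4 and 102.9 CPM in overexpression 1, 2 and 3, against 273.1, 735.7 and 341.6 CPM in controls 1, 2 and 3. Overexpression 1 and 2 were nearly equal, while overexpression 3 lay well above them and control 2 stood 2.39 times above the mean of the other controls. The means were 57.2 ± 39.5 CPM in overexpression libraries and 450 ± 250 CPM in controls (SD, n = 3 each). The log2 fold change was -2.97 (SE 0.57), or 7.86-fold lower. It was -2.43 without control 2 and -3.71 without overexpression 3.

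UBA7 (ENSG00000182179, chromosome 3, 49805207 to 49813946, minus strand), the enzyme that activates ISG15 at the first step, was the scarcest member. It had 23, 11 and 74 counts in overexpression 1, 2 and 3, or 1.40, 0.80 and 4.31 CPM, against 197, 300 and 359 counts, or 13.1, 19.7 and 22.1 CPM, in controls 1, 2 and 3. The lowest of these lay above the floor of 3 counts, and the overexpression libraries differed 5.38-fold among themselves. The log2 fold change was -3.06 (SE 0.58), and -4.04 without overexpression 3. An annotated microRNA gene, MIR5193, lies within UBA7 exons on the same strand and had at most 1 count in any library.

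UBE2L6 (ENSG00000156587, chromosome 11, 57551656 to 57568284, minus strand), the conjugating enzyme of the second step, stood at 38.05, 27.9 and 90.3 CPM in overexpression 1, 2 and 3, against 217.7, 398.7 and 328.1 CPM in controls 1, 2 and 3. Again overexpression 3 was high within its group, and control 2 was the highest library. The log2 fold change was -2.59 (SE 0.47), or 6.04-fold lower, and -3.26 without overexpression 3.

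HERC5 and HERC6 lie in the same orientation on chromosome 4, with 14005 bases between the end of HERC6 and the start of HERC5. HERC5 (ENSG00000138646, 88457117 to 88506163, plus strand) stood at 45.3, 28.5 and 66.7 CPM in overexpression 1, 2 and 3, against 205.6, 204.4 and 289.9 CPM in controls 1, 2 and 3. HERC6 (ENSG00000138642, 88378739 to 88443111, plus strand) stood at 74.2, 38.3 and 75.2 CPM in overexpression 1, 2 and 3, against 152.2, 125.4 and 150.9 CPM in controls 1, 2 and 3. As a ratio, HERC6 showed the narrowest gap of the members, with 75.2 CPM in its highest overexpression library and 125.4 CPM in its lowest control. The log2 fold changes were -2.32 (SE 0.34) for HERC5 and -1.19 (SE 0.28) for HERC6, or 4.98-fold and 2.28-fold lower. No run of 100 bases in the annotated transcripts of either gene occurs in transcripts of another gene.

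USP18 (ENSG00000184979, chromosome 22, 18149899 to 18177397, plus strand), the deconjugase, stood at 46.2, 32.9 and 90.7 CPM in overexpression 1, 2 and 3, against 241.3, 278.9 and 276.3 CPM in controls 1, 2 and 3. The controls were close together, 1.16-fold apart, and the overexpression libraries were not. The log2 fold change was -2.23 (SE 0.37), or 4.69-fold lower. USP41, a related gene further along chromosome 22, shares 15.4% of the 100-base runs in the USP18 transcript, so some reads of either gene may be assigned to the other. USP41 stood at 3.64, 1.601 and 4.54 CPM in overexpression 1, 2 and 3 and at 11.3, 15.9 and 15.03 CPM in controls 1, 2 and 3, which was 4.67% to 7.87% of the USP18 level. With the counts of both genes summed, the log2 fold change was -2.22.

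Replicate pairs differed in size in the same way across the members. Subtracting the same-numbered control, pair 2 gave the largest difference for 6 of 6 members and pair 3 the smallest for 6 of 6. For ISG15 the log2 differences were -2.98, -4.42 and -1.73 in pairs 1, 2 and 3, and for HERC6 they were -1.04, -1.71 and -1.0. SNHG5 itself differed by 1.33, 0.32 and 0.19 on the log2 scale in pairs 1, 2 and 3. Its largest difference was thus in pair 1, not pair 2, and its smallest in pair 3, as for the members. Whether the sizes of the SNHG5 and member differences go together was not tested. The members share these libraries, so their common order is 1 observation and not 6.

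**Figure D2:**
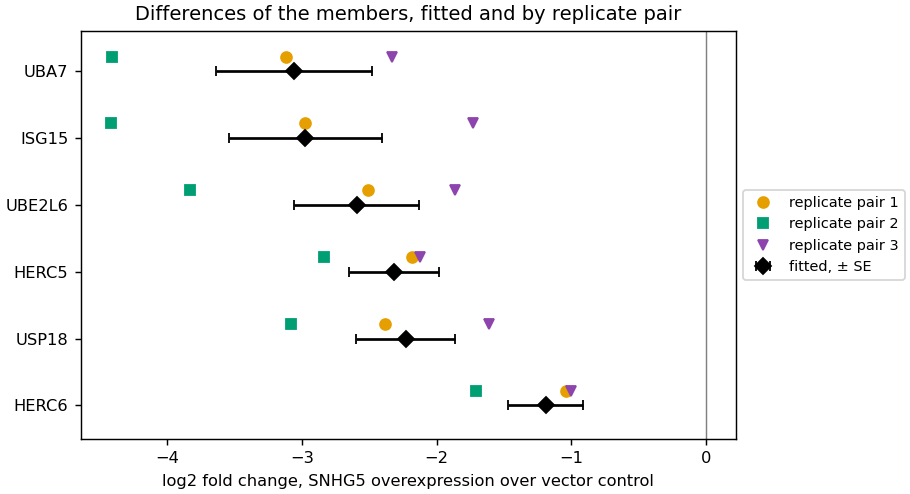
Log2 fold change of SNHG5 overexpression over vector control for each member: black diamonds are the fitted values ± SE, coloured symbols the differences within replicate pairs 1, 2 and 3. Pair 2 is farthest from 0 for every member, and HERC6 lies nearest to 0 at -1.19.

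In edgeR's quasi-likelihood test 0 of 6 members passed an adjusted p of 0.05, against 0.102% of all genes called lower and 0.0256% called higher. All 6 had a lower level with an unadjusted p under 0.05, as did 4.41% of all genes tested. With the replicate number as a block, HERC5 and USP18 passed (2 of 6, against 0.441% of all genes). DESeq2 called 6 of 6 (1.57% of all genes), and limma-voom 0 of 6 (0.122%). Without overexpression 3, edgeR called 5 of 6, all except HERC6 (0.902% of all genes), while leaving out any other library gave 0 of 6. Over all genes, edgeR called 16 lower and 4 higher, and the lower count was 1 without overexpression 1, 0 without overexpression 2, control 2 or control 3, 144 without overexpression 3 and 19 without control 1. These counts use the contrast by which the members were chosen and support nothing further.

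The members varied among themselves in the size of their difference and in which control was highest. Profiles over the 6 libraries were compared by the root-mean-square difference of log2 CPM after each gene's own mean was removed, so that 0 means the same pattern and size. HERC5 and USP18 were closest at 0.19, then UBE2L6 and USP18 at 0.28 and ISG15 and UBE2L6 at 0.32. HERC6 was farthest from UBA7 and ISG15, at 1.16 and 1.13. The measure does not separate shape from size, and HERC6 had a log2 fold change of -1.19, against -3.06 for UBA7 and -2.97 for ISG15. ISG15 and UBE2L6 had their peak in control 2, as did USP18 narrowly (278.9 CPM against 276.3 CPM in control 3), whereas HERC5, HERC6 and UBA7 did not. Control 2 also differed from the other controls in its mitochondrial share, at 2.57% of counts against 4.6% and 5.31% in controls 1 and 3. The part of this library difference in the peaks was not tested.

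**Figure D3:**
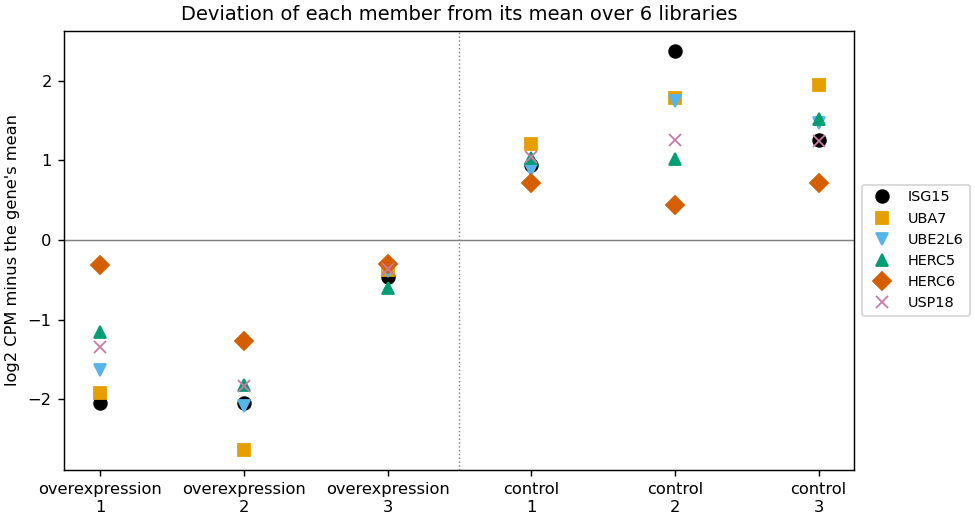
Log2 CPM of each member minus its own mean over the 6 libraries, overexpression libraries left of the dotted line and controls right of it. All 6 members lie below 0 in overexpression and above 0 in controls, with ISG15 reaching 2.37 in control 2 and HERC6 staying between -1.27 and 0.72.

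Relative to ISG15, HERC6 was the member whose share differed most between groups. The log2 ratio of HERC6 to ISG15 CPM was 1.10, 0.16 and -0.45 in overexpression 1, 2 and 3, against -0.84, -2.55 and -1.18 in controls 1, 2 and 3. The means were 0.27 ± 0.78 in overexpression libraries and -1.52 ± 0.91 in controls (SD, n = 3 each). The difference of 1.79 restates that the log2 fold change of HERC6, at -1.19, was smaller in size than that of ISG15, at -2.97. For UBA7, UBE2L6, HERC5 and USP18 the mean differences of the ratio to ISG15, overexpression minus control, were -0.24, 0.31, 0.66 and 0.69 on the log2 scale.

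Levels were compared between genes per length, with the deposited FPKM, which divides the count by the library total and a gene length. ISG15 was the most abundant member at 28.1 ± 19.6 FPKM in overexpression libraries and 217 ± 130 FPKM in controls. USP18 followed at 27.0 ± 14.6 FPKM in overexpression libraries and 123 ± 12.6 FPKM in controls (SD, n = 3 each), and in both groups its range overlapped that of ISG15. UBE2L6 came next, at 13.9 ± 9.07 FPKM in overexpression libraries and 82.2 ± 26.3 FPKM in controls. HERC5 stood at 7.39 ± 3.05 FPKM in overexpression libraries and 35.7 ± 6.54 FPKM in controls, and HERC6 at 6.69 ± 2.20 FPKM in overexpression libraries and 14.9 ± 1.03 FPKM in controls. The ligases overlapped in the overexpression libraries and not in the controls. UBA7 was lowest, at 0.247 ± 0.216 FPKM in overexpression libraries and 2.03 ± 0.52 FPKM in controls.

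Among protein-coding genes with a count, ordered by FPKM, ISG15 ranked 1627, 1608 and 363 in overexpression 1, 2 and 3, against ranks of 105, 32 and 78 in controls 1, 2 and 3. It was thus within the top 0.721% of such genes in every control, while UBA7 lay no higher than the top 50.6% in any library. Part of this order depends on the length used. The length implied by the deposited counts and FPKM was 2070 bases for ISG15, while its principal transcript has 711. For UBE2L6 the lengths were 3792 and 1354, and for UBA7 8896 and 3299, while for USP18 both were 2129. The ranks above use the implied lengths. With principal transcripts, UBE2L6 exceeded USP18 at 39.0 ± 25.4 FPKM in overexpression libraries and 230 ± 73.8 FPKM in controls, USP18 being unchanged, and HERC6 exceeded HERC5 in the overexpression libraries (16.7 ± 5.49 and 13.5 ± 5.56 FPKM) but not in the controls (37.1 ± 2.57 and 65.2 ± 11.9 FPKM). ISG15 stayed highest and UBA7 lowest under each length tried.

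The genes whose profile over the 6 libraries was most like that of ISG15, among 10972 genes with a mean log2 CPM of at least 2, were PDGFRL, PSMB9, PARP10, IFI6 and IFITM3, at root-mean-square differences of 0.11, 0.20, 0.22, 0.25 and 0.27. PSMB9 is a subunit of the immunoproteasome, and IFI6 and IFITM3 are interferon-induced membrane proteins. PDGFRL stood at 2.18, 1.97 and 7.16 CPM in overexpression 1, 2 and 3, against 16.7, 41.6 and 23.6 CPM in controls 1, 2 and 3, with the same peak in control 2. Extending the measure to the other members was decided after the values were seen. The nearest gene was DHX58, an RNA sensor of the RIG-I family, for UBA7 (0.12), and PARP10 for UBE2L6 (0.17). It was the RNA sensor gene IFIH1 for HERC5 (0.10), the basement membrane gene NID1 for HERC6 (0.12) and the oligoadenylate synthetase gene OAS1 for USP18 (0.13).

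The enzymes of other ubiquitin-like systems were compared in the same fit, as lists drawn up with earlier results of these data known. Over 127 listed genes other than the members, 126 were tested and edgeR called 0 in either direction. At an unadjusted edgeR p under 0.05 there were 15, of which 14 were lower in overexpression. Of all genes tested, 4.41% were lower at that p. By adjusted p, limma-voom called 1 and DESeq2 8. The replicate block called 3, all lower, namely MX1, IFIH1 and STAT2, with adjusted p of 0.0416, 0.0304 and 0.0367 in that fit.

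Among other E1 enzymes, edgeR called 0 of 9 in either direction and the median log2 fold change was 0.14. UBA1, the main E1 of ubiquitin and a relative of UBA7, stood at 396, 363 and 504 CPM in overexpression 1, 2 and 3, against 494, 374 and 523 CPM in controls 1, 2 and 3, and the groups overlapped. UBA2 and NAE1, which activate SUMO and NEDD8, had log2 fold changes of 0.42 (SE 0.22) and 0.33 (SE 0.20). Of the other 31 E2 enzymes edgeR called 0, with a median of -0.01. UBE2L3, the closest relative of UBE2L6 and an E2 of ubiquitin, stood at 93.0, 95.3 and 120.7 CPM in overexpression 1, 2 and 3, against 124.1, 157.4 and 117.8 CPM in controls 1, 2 and 3, again overlapping, with a log2 fold change of -0.37 (SE 0.20). UBE2S, which extends ubiquitin chains for the anaphase-promoting complex, and UBE2O had log2 fold changes of -0.65 (SE 0.26) and -0.55 (SE 0.24).

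Of the other HERC ligases edgeR called 0 of 4, and their median log2 fold change was 0.37. HERC3, from the same cluster on chromosome 4 as HERC5 and HERC6, stood at 42.8, 37.0 and 23.4 CPM in overexpression 1, 2 and 3, against 25.0, 24.3 and 27.0 CPM in controls 1, 2 and 3. It was high in overexpression 1 and 2 alone, with a log2 fold change of 0.44 (SE 0.25), and HERC4 was at 0.46 (SE 0.30). PPM1K, a mitochondrial phosphatase whose gene is another neighbour, stood at 13.5, 8.08 and 17.0 CPM in overexpression 1, 2 and 3, against 31.8, 33.5 and 51.7 CPM in controls 1, 2 and 3. The groups of PPM1K did not overlap, and its log2 fold change was -1.60 (SE 0.33, edgeR adjusted p 0.152). DESeq2 called PPM1K (adjusted p 0.000968). Of the 8 listed neighbours 7 were tested, edgeR called 0, and the median was 0.06.

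Of 14 other modifiers edgeR called 0, while DESeq2 and limma-voom each called UBD, and the median was -0.30. UBD passed the minimum on low counts through the controls alone, so its calls support nothing further. UBB and UFM1 had log2 fold changes of -0.50 (SE 0.22) and 0.53 (SE 0.28). The 39 other ubiquitin-specific proteases had 0 called by edgeR and a median of 0.17, with USP42 at -0.51 (SE 0.19) and USP12 at 0.64 (SE 0.26). Of 7 further ligases and proteases reported to act on ISG15, edgeR called 0, and the median was 0.37. TRIM25, a ligase reported for ISG15, stood at 344, 216.8 and 395 CPM in overexpression 1, 2 and 3, against 549, 478 and 659.9 CPM in controls 1, 2 and 3, with a log2 fold change of -0.82 (SE 0.27, edgeR adjusted p 0.572). USP13 was at 0.41 (SE 0.23).

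Among 16 proteins reported as ISG15 substrates, 0 genes were called by edgeR, 14 had a lower fitted level and the median was -0.27. Of all 15631 genes tested, 7699 had a lower fitted level. IFIH1, which encodes the double-stranded RNA sensor MDA5, stood at 62.7, 38.1 and 97.0 CPM in overexpression 1, 2 and 3, against 258, 254 and 349 CPM in controls 1, 2 and 3. Its log2 fold change was -2.12 (SE 0.35, edgeR adjusted p 0.0874 without the block). Of the 7 genes of the receptor, its kinases and its downstream transcription factors, where USP18 acts, 0 were called by edgeR and the median was -0.25. STAT2, through which USP18 reaches the receptor, was at -1.88 (SE 0.48, edgeR adjusted p 0.295 without the block). IFNAR2, the subunit that USP18 binds, stood at 39.6 ± 7.89 CPM in overexpression libraries and 34.4 ± 3.58 CPM in controls (SD, n = 3 each), with a log2 fold change of 0.20 (SE 0.22).

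**Figure D4:**
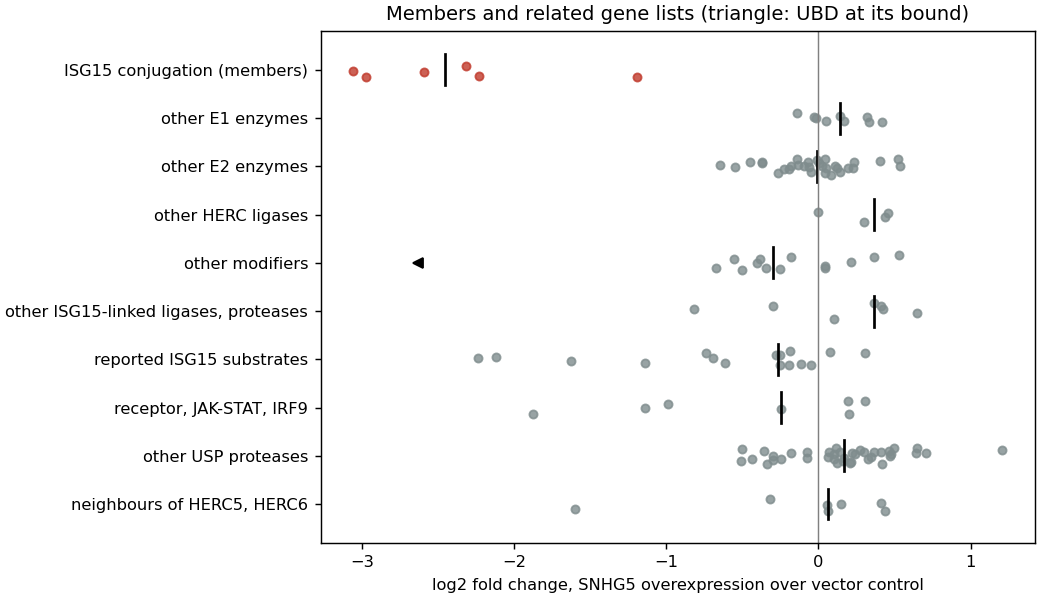
Log2 fold change of SNHG5 overexpression over vector control for the members (red) and for the genes of 9 related lists (grey); short black lines are list medians, vertical jitter is random, and the triangle marks UBD at the bound set by 3 counts per overexpression library. The members lie between -3.06 and -1.19, and the list medians between -0.30 and 0.37.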

How the data were processed

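The submitters' processing notes name HISAT2, FastQC and the build GRCh38. The counting program, its strand setting and versions are not stated. Per the labels' protocols the kit was TruSeq RNA, which as far as is known does not mark the strand; whether these libraries did was not tested, so reads of a gene and of an overlapping one on the other strand may not be told apart. For each library the authors deposited gene counts in whole numbers together with FPKM. From the counts, edgeR 4.0.16 in R 4.3.3 was run (TMM scaling, filterByExpr, robust quasi-likelihood fit, two-sided) with Benjamini-Hochberg adjustment over all 15631 genes and a threshold of 0.05; the step was tested on simulated data. The SE is the log2 fold change divided by the square root of F. Log2 CPM used a prior count of 2. DESeq2 1.42.0, limma-voom (limma 3.58.1), other scalings and filters, a replicate block and leaving out each library were alternatives.

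Members, lists and alternatives were chosen with earlier results of these data known. Genes named from a list are those past the threshold with the largest change, or else the 2 with the smallest p at a mean log2 CPM of at least 2, besides UBA1, UBE2L3, HERC3 and USP41; others were chosen after their values were seen, namely IFNAR2, UBD, and MX1 among the calls with the block. Of the genes listed, some are not reported here. After group means were removed, libraries of the same number correlated at 0.42, 0.12 and 0.29 for replicates 1, 2 and 3, all over 0.1, which by the rule used counts as paired by number. Unmatched libraries correlated at -0.42 to 0.18, and overexpression 2 correlated more with control 1 (0.18) than with control 2. The values given are from the fit without the pairs, and those with the replicate block are given where they change a call or a count. Chi-square per degree of freedom between replicates was 26.2 to 94.5, and each library counted as 1 replicate. Gene models, transcripts and lengths came from GENCODE release 29 (GRCh38), and promoter windows from RefSeq on GRCh38.p14. Runs of 100 bases were compared on both strands over all annotated transcripts.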

Additional observations from a re-analysis of the deposited data

How the results depend on the processing

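The member log2 fold changes kept their sign in all 14 alternatives, with medians from -3.0 to -2.18, though groups that do not overlap leave little room to turn. Without 1 library, UBA7 ran from -4.04 to -2.68, ISG15 from -3.71 to -2.43, UBE2L6 from -3.26 to -2.30, USP18 from -2.75 to -1.96, HERC5 from -2.66 to -2.06 and HERC6 from -1.35 to -0.94. Of the members, 2 were called lower with the replicate number as a block, 2 when no filter was set, 6 by DESeq2 and 0 to 5 without 1 library, in place of 0. Over all genes, 69 were called lower with the block, 72 when no filter was set, 246 by DESeq2 and 0 to 144 without 1 library, in place of 16, and 20 were called higher by DESeq2 and 0 to 20 without 1 library, in place of 4. Among the listed related genes, 3 were called with the block, 2 with no filter, 8 with DESeq2, 1 with limma-voom and 0 to 2 without 1 library, in place of 0. The replicate block changed no other call given in the text. SNHG5 stayed short of the threshold in all 13 alternatives, at log2 differences of 0.39 to 0.97. The causes of these shifts were not tested. The floor of 3 counts came to 0.175 to 0.218 CPM, and UBA7, with 11 counts in overexpression 2, is the member nearest to it.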

Other observations

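UBD, which encodes the interferon- and TNF-inducible modifier FAT10, had 0 counts in overexpression 1, 2 and 3, against 11, 30 and 14 counts in controls 1, 2 and 3. On group means, its control level of 1.19 ± 0.679 CPM (SD, n = 3) makes it at least 6.2-fold lower in the overexpression libraries, against a floor of 3 counts per library. Control 2 raised that mean, at 1.968 CPM against 0.733 and 0.862 CPM in controls 1 and 3, which alone would give a smaller bound. UBD had an edgeR adjusted p of 0.121, and was the listed gene that limma-voom called (adjusted p 0.0328). It passed the minimum on low counts through the controls alone, so these values support nothing further. Like ISG15, UBD was highest in control 2. It was chosen after its values were seen.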
